A study of Drosophila melanogaster with 22 samples.

Results

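Prx6c is 1 of the 13962 protein-coding genes of the fly annotation. It was followed through the open-chromatin peaks of isolated adult Drosophila melanogaster hearts. The members were every peak in the deposited ATAC-seq lists that overlapped Prx6c or the 5 kb on either side of it. They numbered 70 of the 227249 peaks of all 22 libraries and fell into 3 of the 9850 merged regions. Prx6c was chosen by the rank of its peak in these same libraries, which differed between LamC knockdown and control hearts and between strains. Its own levels are therefore a description, without a test.

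The libraries form 6 groups. The strain w1118, which carries a white-eye mutation and for which no driver is named, was sampled at 5 weeks (n = 3) and at 1 week (n = 3). All other groups were 1 week old. Flies expressing RNAi against LamC, the fly's A-type lamin, labelled attp2, LamC iR (n = 4), have the attp2 control (n = 4). Flies with RNAi against the B-type lamin, labelled attp40, LamB iR (n = 5), have the attp40 control (n = 3). Lamins line the inner face of the nuclear envelope, and attp2 and attp40 name landing sites for transgenes. The design text names Hand-Gal4, a driver active in the heart, for both knockdowns and both of these controls. The design text has 3 libraries for LamC RNAi and 4 for LamB RNAi, while 4 and 5 carry these labels. It is not stated that replicates are separate pools of flies, so a p-value reflects only the spread among these replicates, and that spread may be technical. Sex is not stated.

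Peroxiredoxins are thiol peroxidases that reduce hydrogen peroxide and organic hydroperoxides through a reactive cysteine. The Prx6 class uses a single such cysteine and is known from mammals for reducing oxidised phospholipids. Open chromatin next to a gene marks where regulatory proteins can reach the DNA. It does not measure the gene's transcript.

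In the RefSeq annotation of Release 6, the assembly behind dm6, Prx6c spans 2R, 10418718 to 10419761. The window ran from 10413718 to 10424761 and touched 5 genes. SLO2, a potassium channel gene, ends at 10416996. CG11825, listed with the synonym dHIG1, spans 10420414 to 10423650. CG33474 lies within it at 10421706 to 10422989. Prx6b, another peroxiredoxin gene, starts at 10424436. A further peroxiredoxin gene, CG12896 (10426880 to 10427915), lies beyond the window, followed by RanBPM from 10429708. Prx6c, Prx6b and CG12896 are closely related copies, between which short reads can be split. The handling of reads that match more than 1 copy is not stated, and its part in the values was not tested. Their levels are therefore uncertain as levels of 1 gene. The gene table has no strand, so the ends of a gene are called lower and upper by coordinate. No sequence of this arm is shown.

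The 70 peaks were ordered along the window in the same way in every library. The first region (10418055 to 10418716) lay below the lower end of Prx6c and held 18 peaks. The second (10421050 to 10422157) lay in CG11825 and CG33474 and held 22, 1 per library. The last (10423245 to 10424434) ran from inside the upper end of CG11825 to just below Prx6b and held 30. Every library had a peak in the second and the last region, and 17 of 22 had 1 in the first. The nearest deposited peak below the window was 98694 bp away. The nearest above it was 3224 bp away, next to CG12896, and the last peak inside ended 327 bp from the edge. No base of Prx6c, Prx6b or CG12896 itself was covered by a peak in any of the 22 lists. Among the 9053 protein-coding genes with a peak within 500 bp of an end, 10.7% likewise had none in the gene in any list. The farthest-reaching peaks ended at 10418716 and at 10424434, just short of the first bases of Prx6c and of Prx6b.

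**Figure D1:**
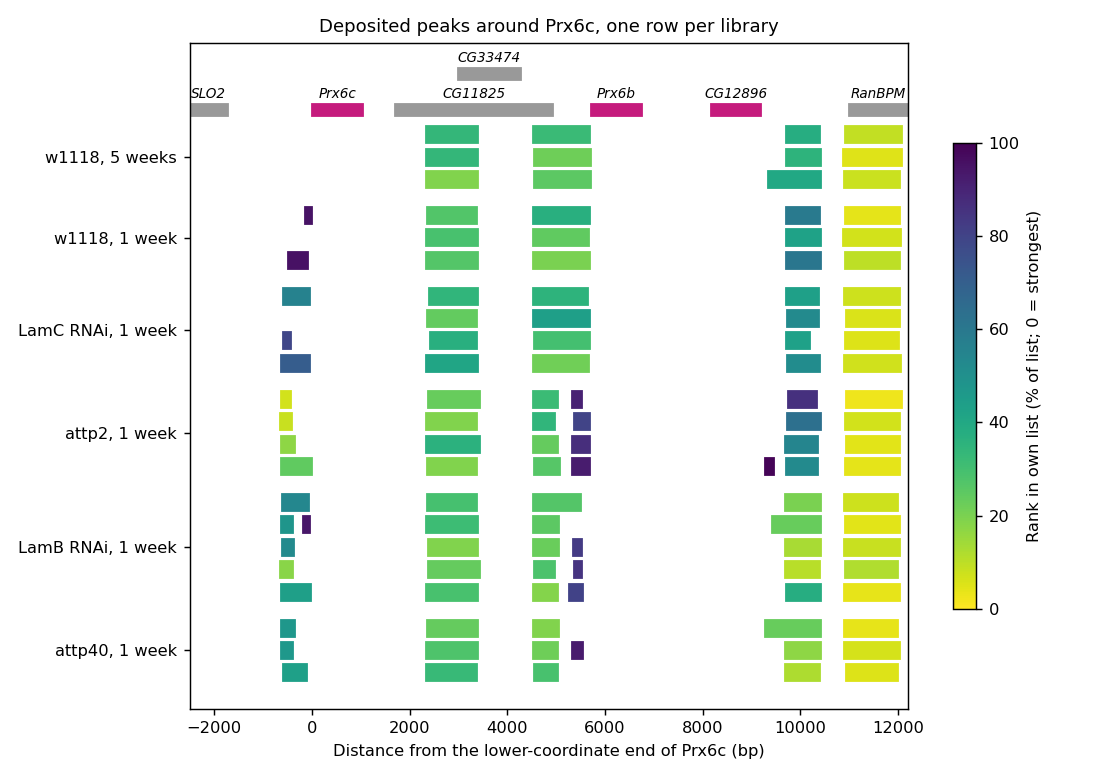
Deposited peaks by distance from the lower-coordinate end of Prx6c (x axis, bp), 1 row per library, coloured by rank in the library's own list (0 = strongest). Magenta bars are the 3 peroxiredoxin genes and grey bars their neighbours. The peak below Prx6c is missing or weak in w1118 and missing or at 55.8% to 79.0% of the list with LamC RNAi. It is strongest in attp2, though LamB RNAi replicate 4 (17.9%) ranks above attp2 replicate 4 (24.5%). The peak below Prx6b is a single wide block in all w1118 and LamC RNAi libraries and in 1 LamB RNAi library.

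Levels are given as rank scores. The shortest list has 8491 peaks, so in every library the 8491 peaks with the highest −log10 p, as the authors give it, were kept. The score of a region is 1 for the strongest peak of a list, falls evenly with rank, and is 0 where the reduced list has no peak. It is relative within a library. In these bulk hearts, fewer cells with the site open and less opening per cell cannot be told apart.

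In w1118 hearts the Prx6c region scored 0 in all 3 libraries at 5 weeks and in all 3 at 1 week. With LamC RNAi the 4 libraries scored 0.354, 0, 0.187 and 0.0685, against 0.923, 0.891, 0.767 and 0.721 in the attp2 controls. The knockdown and control libraries did not overlap. With LamB RNAi the 5 libraries scored 0.413, 0.393, 0.403, 0.766 and 0.444, against 0.461, 0.481 and 0.566 in the attp40 controls. Here the groups overlapped.

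Group means were 0 in w1118 at both ages, 0.152 ± 0.155 (SD, n = 4) with LamC RNAi and 0.826 ± 0.0968 (n = 4) in attp2. They were 0.484 ± 0.159 (n = 5) with LamB RNAi and 0.503 ± 0.0560 (n = 3) in attp40. In this order of levels, w1118 and LamC RNAi shared libraries at 0. LamC RNAi lay below every LamB RNAi library, LamB RNAi and attp40 were not separated, and attp2 lay above every attp40 library but not above LamB RNAi replicate 4. The LamC RNAi mean was 0.673 below attp2 (difference −0.673) and the w1118 mean at 1 week was 0.826 below it (−0.826), 2 differences that share the attp2 libraries. The attp2 and attp40 controls differed by 0.323. LamB RNAi and attp40 differed by −0.0191 and the ages of w1118 by 0.

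These differences were among those that chose the gene. For scale, 1.49% of the 9850 regions had LamC RNAi libraries wholly below attp2. The share with 1-week w1118 wholly below attp2 was 3.81%, and below attp40 8.98%. In 3.09% of regions attp2 lay wholly above attp40.

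**Figure D2:**
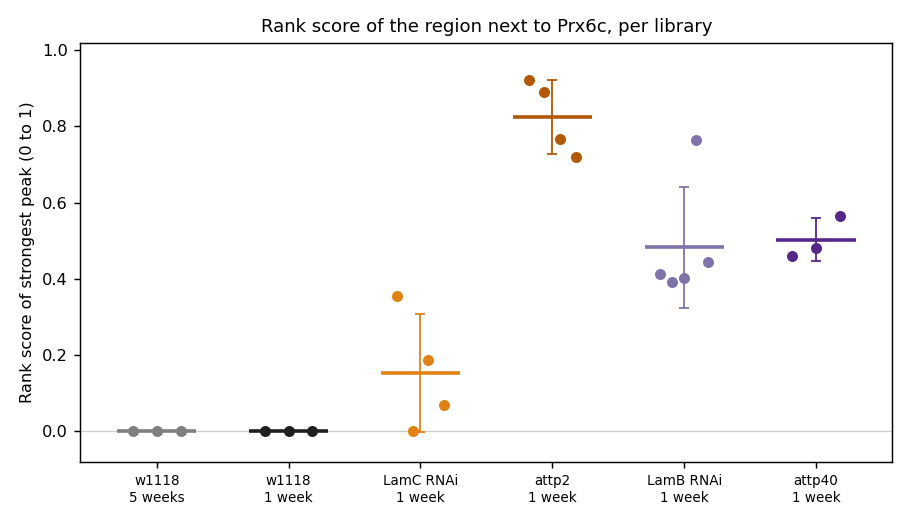
Rank score (0 to 1, no unit) of the strongest peak in the region next to Prx6c, 1 point per library, with the group mean (line) and SD (bar). All 6 w1118 libraries sit at 0, the 4 LamC RNAi libraries at 0 to 0.354 and the 4 attp2 libraries at 0.721 to 0.923.

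As ranks among 8491 peaks, the Prx6c peak of LamC RNAi stood at 5486, 6903 and 7910 in the 3 libraries that had 1. In attp2 it stood at 657, 923, 1979 and 2369. It outranked the neighbouring peak in CG33474 of the same list in 0 of 4 LamC RNAi libraries and in 3 of 4 attp2 libraries. The same held in 1 of 5 LamB RNAi, 0 of 3 attp40 and 0 of 6 w1118 libraries. This order of the 2 peaks thus held in most attp2 libraries and in LamB RNAi replicate 4. The authors' own fold enrichment of the Prx6c peak over its background was 4.60, 4.00 and 3.24 in the 3 LamC RNAi libraries with a peak and 9.81, 10.4, 8.34 and 6.87 in attp2. It was 4.54, 4.74, 4.88, 8.77 and 4.91 with LamB RNAi and 4.65, 5.03 and 5.70 in attp40. Fold enrichment and rank thus put the same libraries highest, although folds are each library's own.

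In the full lists, 2 of the 3 w1118 libraries at 1 week did hold a weak peak, and none at 5 weeks did. These ranked 10823 of 11370 in replicate 1 and 10585 of 11095 in replicate 3. Their summits lay at −85 and −83 bp from the lower end of Prx6c. In LamC RNAi, attp2, LamB RNAi and attp40 the summit of the strongest peak lay at −552 to −500 bp in every library with a peak. So the 2 w1118 peaks and the strongest peaks of the other groups had summits at different places in the region. LamB RNAi replicate 2 also held a second, weak peak with its summit at −88 bp, ranked 10070 of 10732. The wide peaks of LamC RNAi replicates 1 and 4, attp2 replicate 4 and LamB RNAi replicates 1 and 5 spanned that position as well. Both w1118 peaks ranked below the 8491 peaks kept and so count as 0 in the score of their libraries. The w1118 lists had 10637 to 12395 peaks, against 8736 to 11148 with LamC RNAi, 9375 to 11602 in attp2, 9259 to 11150 with LamB RNAi and 8491 to 9711 in attp40.

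Widths of the Prx6c peak did not separate the groups that had it. The strongest peak was 562, 159 and 584 bp wide with LamC RNAi and 217, 247, 275 and 627 bp in attp2. It was 244 to 601 bp with LamB RNAi and 241 to 482 bp in attp40. In LamB RNAi replicate 2 the region was split into 2 peaks.

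The region from the upper end of CG11825 to Prx6b showed the opposite contrast in width, seen after the values were known and given without a test. It was covered by 1166 to 1178 bp of peak in w1118 at 5 weeks and by 1146 to 1166 bp at 1 week. LamC RNAi libraries had 1128 to 1164 bp, against 451 to 517 bp in attp2. LamB RNAi libraries had 442 to 976 bp, against 501 to 524 bp in attp40. So w1118 and LamC RNAi were alike in this measure, and no attp2 or attp40 library reached their widths.

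For scale, LamC RNAi libraries were all wider than all attp2 libraries in 1.63% of the 9850 regions. A mean difference at least as large was found in 9 regions, 0.0914%. Wider regions were common in w1118, where 15.8% were wider than in attp2 at 1 week without overlap. Against attp40 the share was 17.6%. A mean difference as large as here was found in 0.69% of regions against attp2 and in 0.467% against attp40. In the full lists all 4 attp2 libraries had a second, weak peak nearer to Prx6b, 194 to 375 bp wide and ranked at 80.0% to 92.4% of the list. It was also found in 3 of 5 LamB RNAi and in 1 of 3 attp40 libraries. With these second peaks, in an alternative chosen after seeing the data, attp2 coverage was 698 to 892 bp, still below every LamC RNAi and w1118 library. LamB RNAi coverage was then 527 to 976 bp and attp40 coverage 501 to 736 bp.

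The interval free of genes between CG11825 and Prx6b is 785 bp long. In the full lists, peaks covered 745 to 784 bp of it in the 6 w1118 libraries and 727 to 767 bp with LamC RNAi, against 293 to 511 bp in attp2. With LamB RNAi 121 to 575 bp were covered and in attp40 109 to 335 bp. A single wide peak reached across most of it in all 6 w1118, all 4 LamC RNAi and 1 of 5 LamB RNAi libraries, and in no attp2 or attp40 library. The LamB RNAi peak, in replicate 1, covered 575 bp of the interval. The intervals between Prx6c and CG11825 and between Prx6b and CG12896 had no peak in any library.

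**Figure D3:**
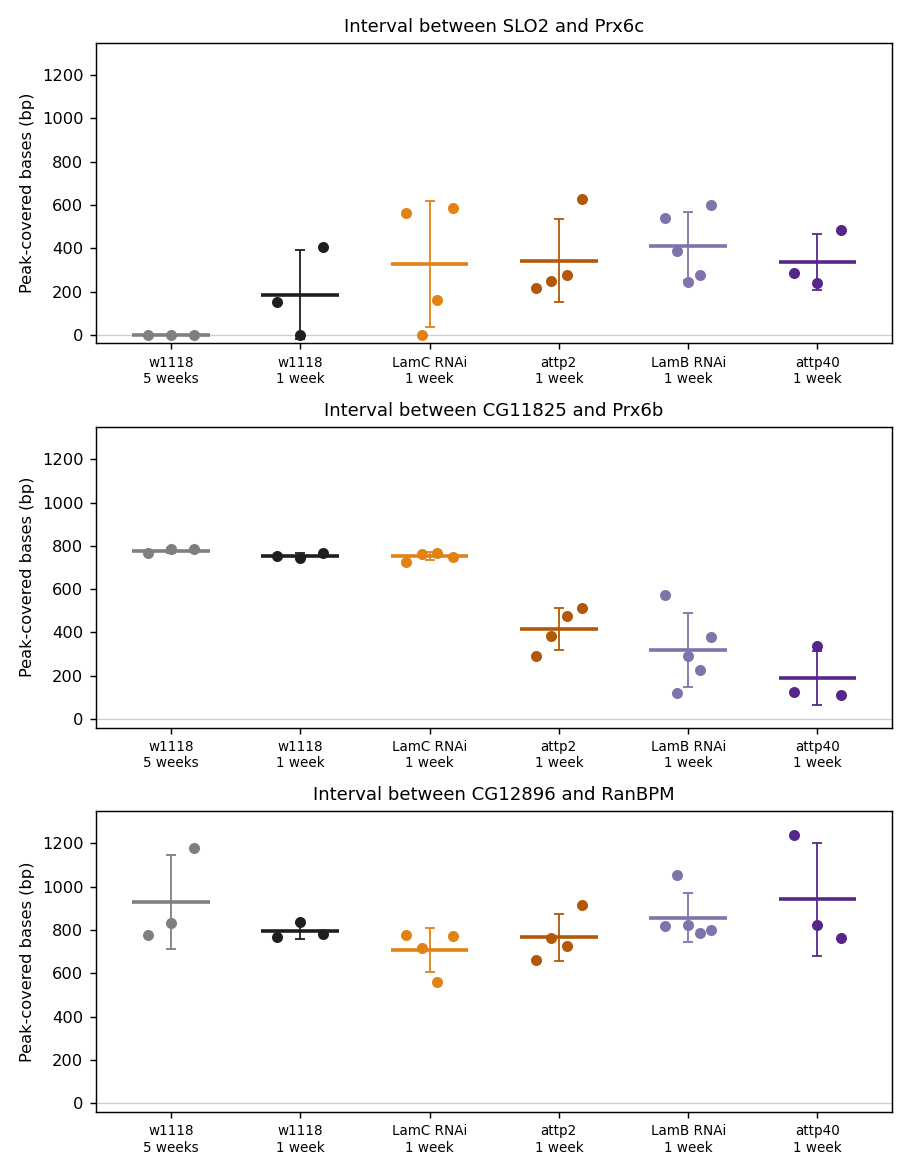
Bases covered by deposited peaks (y axis, bp) in the intervals below Prx6c, below Prx6b and above CG12896, 1 point per library with the group mean (line) and SD (bar). Below Prx6b all w1118 and LamC RNAi libraries sit at 727 to 784 bp and all attp2 and attp40 libraries at 109 to 511 bp.

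Its rank did not follow its width. The Prx6b region scored 0.642 ± 0.0977 (SD, n = 3) in w1118 at 5 weeks and 0.646 ± 0.123 (n = 3) at 1 week. It scored 0.623 ± 0.103 (n = 4) with LamC RNAi and 0.647 ± 0.0604 (n = 4) in attp2, and 0.705 ± 0.0535 (n = 5) with LamB RNAi and 0.749 ± 0.0372 (n = 3) in attp40. Of the 6 comparisons, attp2 against attp40 was without overlap, at 0.562 to 0.701 in attp2 and 0.709 to 0.784 in attp40. The CG33474 region scored 0.458 to 0.785 over all libraries. There, w1118 at 1 week against attp40 was without overlap, at 0.634 to 0.649 in w1118 and 0.673 to 0.732 in attp40. Of all regions, 5.08% had attp2 and 8.98% had 1-week w1118 wholly below attp40. Both regions belong to the window, so these ranks are likewise a description, without a test.

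CG12896, the remaining copy, was outside the rule and was tested. Reads can be split between it and Prx6c, and its list was chosen with earlier results known. Its values may therefore not be independent of the choice of Prx6c. Its region (10427985 to 10429134) reaches from just above the gene towards RanBPM. The attp2 libraries scored 0.0478, 0.191, 0.256 and 0.402, against 0.732, 0.809 and 0.879 in attp40. In w1118 at 1 week the scores were 0.209, 0.467 and 0.209. Both lay wholly below attp40, as in 5.08% of regions for attp2 and 8.98% for w1118.

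At CG12896 attp2 fell by 0.583 ± 0.0912 (limma SE) relative to attp40, with a limma adjusted p of 0.00331 and 4 of 4 libraries lower. In that comparison 13 regions of 9850 were lower, 0.132%, and 0.193% were called in either direction. Relative to attp40, w1118 at 1 week fell by 0.512 ± 0.0975, with a limma adjusted p of 0.00585, where 0.751% of regions were called lower and 1.47% in either direction. Both comparisons share the attp40 libraries. With only the 2 groups compared in the fit, the limma adjusted p was 0.139 for attp2 and 0.109 for w1118. With peaks ranked by fold enrichment it was 0.0614 and 0.0209.

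The knockdowns were not separated from their controls at CG12896. LamC RNAi libraries scored 0.494, 0.394, 0.554 and 0.321, a difference of 0.217 ± 0.0844 from attp2 (limma adjusted p = 0.653). LamB RNAi libraries scored 0.782, 0.709, 0.850, 0.858 and 0.524, a difference of −0.0625 from attp40 (adjusted p = 1). In w1118 the 5-week libraries scored 0.449, 0.541 and 0.499, a difference of 0.201 from 1 week (adjusted p = 0.430). LamB RNAi and attp40 overlapped each other and had the highest group means, although LamB RNAi replicate 5 lay within the range of the 5-week w1118 and the LamC RNAi libraries. Attp2, the group with the highest mean at Prx6c, had the lowest mean at CG12896, 0.224 ± 0.147 (SD, n = 4). The next lowest was w1118 at 1 week, 0.295 ± 0.149 (n = 3), a group at 0 at Prx6c. The highest was attp40, 0.807 ± 0.0733 (n = 3), with a Prx6c mean of 0.503. The order of groups at CG12896 was thus not the reverse of that at Prx6c. RanBPM, an adaptor protein gene next to it, scored 0.846 to 0.971 in all libraries and did not pass in any comparison (limma adjusted p of 0.589 or more).

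**Figure D4:**
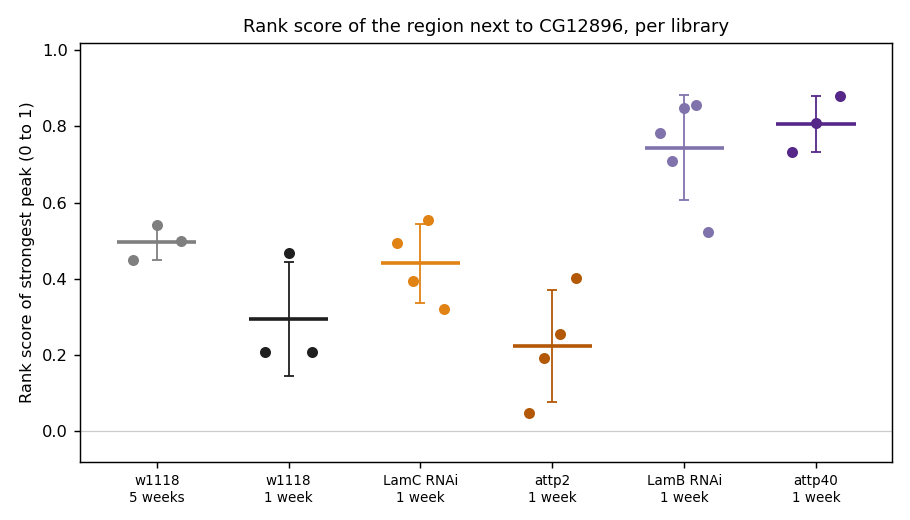
Rank score (0 to 1, no unit) of the strongest peak in the region next to CG12896, 1 point per library, with the group mean (line) and SD (bar). The attp40 libraries sit at 0.732 to 0.879, above all attp2 libraries (0.0478 to 0.402) and all w1118 libraries.

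Of the 9 peroxiredoxin genes, 7 had a region at an end. None was found at Prx1 or at Prx4, the gene of a secretory-pathway enzyme. Besides Prx6c there were 8 regions at 6 genes, Prx6b among them, some of them shared with neighbouring genes. The Prx6b region belongs to the window, so its part in the counts and medians below is a description, without a test. In the LamC, LamB, age and w1118-attp2 comparisons 0 of the 8 passed limma, and 1, 0, 0 and 0 had an unadjusted p under 0.05. No share of all regions is given for that unadjusted threshold, so these counts cannot be read as high or low. The share of all 9850 regions called in these 4 comparisons was 0.152%, 0.183%, 1.32% and 1.46%. In the other 2 comparisons 1 of 8 passed, CG12896 in both. Medians of the 8 differences ran from −0.0259 to 0.0282 over the 6 comparisons, against −0.00296 to 0.00166 over all regions.

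Prx6a, the Prx6-class gene outside the cluster (2L, 2878181 to 2879301), scored 0.548 ± 0.0507 (SD, n = 4) with LamC RNAi and 0.531 ± 0.0618 (n = 4) in attp2. Its means in the other groups were 0.444 to 0.555. Prx3, a mitochondrial peroxiredoxin gene (3R, 17545844 to 17546590), had means of 0.603 to 0.677. Prx5 had 2 regions, with means of 0.410 to 0.577 and 0.638 to 0.698. Prx2, a cytosolic peroxiredoxin gene on X, had means of 0.619 to 0.745 in 1 region and 0.127 to 0.270 in the other. Group means spanned 0.0602 to 0.168 in these 6 regions, 0.583 at CG12896 and 0.826 at Prx6c.

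**Figure D5:**
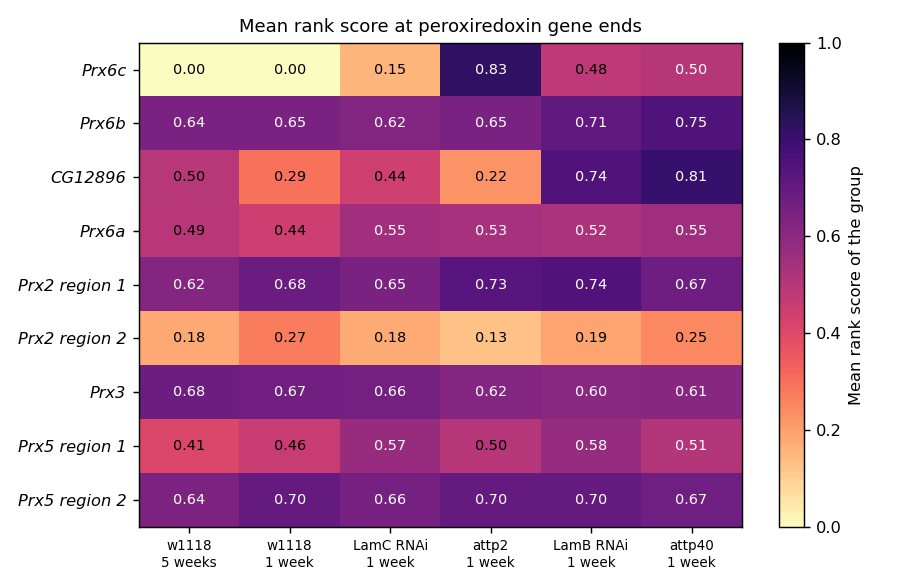
Mean rank score of each group (columns, number in each cell) at the regions next to peroxiredoxin genes (rows), from 0 (no peak) to 1 (strongest peak). Prx6c runs from 0 in w1118 to 0.83 in attp2 and CG12896 from 0.22 in attp2 to 0.81 in attp40, while the other rows vary by 0.17 or less between groups.

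A wider list of 30 antioxidant genes (superoxide dismutases, catalase, thioredoxins, glutathione and Nrf2/Keap1 pathway genes) had 52 regions at 26 genes. In 5 of the 6 comparisons 0 of the 52 passed limma. Unadjusted p was under 0.05 for 2 with LamC RNAi, 3 with LamB RNAi, 7 with age, 7 for w1118 against attp2 and 4 for attp2 against attp40. For w1118 at 1 week against attp40, 1 of 52 passed, near the 1.47% of all regions that passed. In that comparison 11 had an unadjusted p under 0.05. The share of all regions under 0.05 before adjustment is not given, so the unadjusted counts cannot be read as high or low. Over all regions, 0.152% passed with LamC RNAi, 0.183% with LamB RNAi, 1.32% with age, 1.46% for w1118 against attp2 and 0.193% for attp2 against attp40. The region that passed lay inside foxo, a forkhead factor gene of insulin and stress signalling (3R, 14065473 to 14065988). It had no peak among the 8491 kept in the 3 w1118 libraries at 1 week. In attp40 it scored 0.230 ± 0.0781 (SD, n = 3, limma adjusted p = 0.0343). It lost the call in 5 of 6 fits that left out 1 library, with adjusted p of 0.0287 to 0.186. It also lost it with all deposited peaks (0.199), with peaks ranked by fold (0.117) and in a fit of the 2 groups (0.120).

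The presence pattern of Prx6c was taken from its own values, which also chose the gene. How few regions share it is therefore a description, not support. A peak in all 4 attp2 and in no w1118 library of the equal-length lists was found in 10 of 9850 regions, 0.102%. In 3 of them, 0.0305%, all attp40 and LamB RNAi libraries had a peak as well. The other 2 of these 3, next to Paics and pira on X and next to Cyp4p2 on 2R, had attp2 means of 0.234 and 0.137, against 0.826 at Prx6c. In these 2 regions LamC RNAi means were 0.238 and 0.190, each above the attp2 mean, while at Prx6c it was 0.152.

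Over the 22 libraries, the gene regions whose scores followed Prx6c most closely were those at D2hgdh, in drongo and at Cyp28d1 and Cyp28d2. Their Pearson r was 0.782, 0.748 and 0.744. The next 7, led by Eip75B, had r of 0.709 to 0.721, and no region exceeded 0.8. These values describe libraries that share groups and strains. At D2hgdh, a hydroxyglutarate dehydrogenase gene, group means were 0.191 in w1118 at 5 weeks, 0.220 in w1118 at 1 week, 0.218 with LamC RNAi, 0.410 in attp2, 0.321 with LamB RNAi and 0.282 in attp40. In drongo they were 0.236 in w1118 at 1 week, 0.483 with LamC RNAi and 0.584 in attp2. At Cyp28d1 and Cyp28d2 the same groups had 0.299, 0.409 and 0.616. So LamC RNAi was near w1118 at D2hgdh but above it in these regions. All were picked for likeness to Prx6c, so their means are a description.

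Groups differed in more than genotype. The lists carry dates of unstated meaning. Those of w1118 fall in March and April, of LamC RNAi and attp2 in May, and of LamB RNAi in July. Those of attp40 fall in July, apart from replicate 3, in February. For the strain comparisons date and strain cannot be told apart. LamC RNAi replicate 1 and attp2 replicate 4 share 13 May, with Prx6c scores of 0.354 and 0.721. LamB RNAi replicate 2 and attp40 replicate 1 share 20 July, with 0.393 and 0.461. The attp40 replicate from February scored 0.566 at Prx6c and 0.879 at CG12896, the highest of its group at both. Of the 4 LamC RNAi lists, 3 carry the mark H7, of unstated meaning. They scored 0, 0.187 and 0.0685 at Prx6c, and the unmarked replicate 1 scored 0.354. No list of any other group, attp2 included, carries the mark. For these 3 lists mark and knockdown cannot be told apart.

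Of 12 heart marker genes, 10 had a region at an end or in the body and 9 a peak in all 22 libraries. No region was found at tin or Doc1. Summed heart scores were 13.03 to 16.6 over all libraries and overlapped between every pair of groups compared. Of the 32 heart regions, 1 passed limma as lower with LamB RNAi (limma adjusted p = 0.0254), where 0.183% of all regions passed. With age 1 passed as lower at 5 weeks (limma adjusted p = 0.0147), where 1.32% of all regions passed. Sums over pericardial nephrocyte markers (5 of 6 genes with a region, none at Cubn) were 4.51 to 4.74 in 1-week w1118 and 3.38 to 3.91 with LamC RNAi, against 3.52 to 3.76 in attp2. In attp40 they were 3.96 to 4.79. Hemocyte marker sums (5 of 6 genes, none at He) were 4.25 to 4.66 in w1118 at 1 week and 4.19 to 4.32 in attp2, against 4.63 to 5.39 in attp40. Neuron marker sums (3 of 6 genes, none at Rdl, futsch or nSyb) were 1.56 to 1.77 in 1-week w1118 and 1.74 to 2.00 in attp2, against 1.89 to 2.45 in attp40. Fat body sums (3 of 6 genes, none at Fbp1, Fbp2 or Lsp1alpha) were 1.37 to 2.07 and somatic muscle sums (3 of 6 genes, none at Act79B, Act88F or TpnC4) 1.45 to 2.30 over all libraries. At 5 weeks w1118 nephrocyte sums were 3.40 to 4.14 and hemocyte sums 3.43 to 3.79, both wholly below those at 1 week, and fat body sums of 1.79 to 2.07 lay above the 1.37 to 1.77 at 1 week. Taken singly, 7.82% of all regions lay wholly below and 7.13% wholly above at 5 weeks. No such share was computed for sums over several regions. These shares, and those for the strains below, are therefore no measure of how unusual a sum is. Among the strain comparisons, the sums without overlap were nephrocyte sums in w1118 against attp2 and in attp2 against attp40, hemocyte sums in attp2 against attp40, and neuron sums in w1118 against attp40. Of all regions, 6% lay wholly higher in 1-week w1118 than in attp2. Wholly below attp40 lay 5.08% for attp2 and 8.98% for 1-week w1118. Of 9 nephrocyte regions, 1 passed limma as higher in w1118 than in attp2 and 1 as lower with age. Of 13 hemocyte regions, 1 passed as lower in w1118 than in attp40. Over all regions 1.46%, 1.32% and 1.47% passed in these comparisons. No neuron, fat body or somatic muscle region passed. The part of the marker sums and regions in the Prx6c and CG12896 values was not tested.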

How the data were processed

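ATAC-seq peaks of 22 heart libraries were analysed from the deposited narrowPeak lists, 1 list per library. The submitters' processing notes name MACS2, Picard, SAMtools and Bowtie2 and the build dm6. Their versions, their settings and any shift of reads are not stated. In the deposited lists, a peak's values are its fold enrichment, its −log10 p-value and its −log10 q-value, all computed by the authors within the library. Depth is unknown, so lists were reduced to the 8491 strongest peaks by −log10 p. Reduced lists were merged (overlap of at least 1 bp), and regions in at least 3 libraries were kept. A region took the names of protein-coding genes whose end lay within 500 bp, or otherwise of the gene it lay in. Rank scores were fitted with limma 3.58.1 (R 4.3.3, trend, 22 libraries, 6 comparisons) with Benjamini-Hochberg adjustment over 9850 regions and a threshold of 0.05. The fit was also run on simulated data, with residuals shuffled over libraries and some regions shifted. The shifted regions had intermediate mean scores, so recovery at regions of low mean score was not examined. Its outcome is not given here. Python 3.11.15, numpy 2.4.6, pandas 2.3.3 and matplotlib 3.10.9 were used. Coordinates count from base 1.

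The gene and the lists were chosen with earlier results of these data known. Named genes are Prx6c, the genes in its window, the peroxiredoxins, antioxidant genes past the threshold and the 10 regions most like Prx6c by Pearson r. Names in the peroxiredoxin list were corrected to the gene table, in which Prx6c has the synonym Prx2540-2 and Prx6b has Prx2540-1. CG12896 and RanBPM were added as the next features beyond the window. Alternatives were list length, ranking by fold, a fixed window, the region filter, the libraries fitted, a replicate block and leaving out each library.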

Additional observations from a re-analysis of the deposited data

Results flagged for a closer look

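LamB RNAi replicate 4 stood apart from the other 4 libraries of its group at Prx6c, with a rank score of 0.766 against 0.393 to 0.444. Its strongest peak there was 275 bp wide with a summit at −552 bp, and at CG12896 it scored 0.858, the highest of its group, where the others scored 0.524 to 0.850. The gap was 0.863 of the group's range. Without it the LamB RNAi mean at Prx6c was 0.413.

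In attp2, replicate 3 scored 0.506 in the CG33474 region, below the 0.745 to 0.785 of the other 3 libraries, a gap of 0.858 of the range. Its Prx6c score was 0.767. Of 12 sets examined, the groups of 4 or 5 libraries at each of 4 regions, 2 were set apart in this way. Both lie at regions of the window, whose levels are a description. The count is therefore given without a test and cannot be read as high or low.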

How the results depend on the processing

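At Prx6c the attp2 mean was the highest of the 6 groups and the w1118 means the lowest under every alternative run, with LamC RNAi joining w1118 at 0 in half-length lists. The LamB RNAi mean passed the attp40 mean with all deposited peaks, in half-length lists and with ranking by fold, and also without LamB RNAi replicate 2 (0.506) or 3 (0.504), or without attp40 replicate 3 (attp40 mean of 0.471). In half-length lists of 4245 peaks, means were 0 with LamC RNAi, 0.651 in attp2, 0.106 with LamB RNAi and 0.0441 in attp40. All deposited peaks gave 0.0314 in w1118 at 1 week, and ranking by fold gave 0.374 in attp40. Leaving out 1 library gave 0 in w1118, 0.0852 to 0.203 with LamC RNAi, 0.793 to 0.860 in attp2, 0.413 to 0.506 with LamB RNAi and 0.471 to 0.523 in attp40.

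Regions called numbered 15 for LamC RNAi, 18 for LamB RNAi, 130 for age, 144 for w1118 against attp2, 145 for w1118 against attp40 and 19 for attp2 against attp40. A fit of the 2 groups alone called 4, 7, 20, 47 and 41 in the first 5 and 21 in the last. All deposited peaks called 349 for age and 320 and 440 for w1118 against attp2 and attp40, half-length lists 27, 57 and 53. Ranking by fold called 11 for attp2 against attp40. Leaving out 1 library gave 12 to 22 for LamC RNAi, 8 to 24 for LamB RNAi, 61 to 171 for age, 81 to 163 and 96 to 143 for w1118 against attp2 and attp40, and 8 to 37 for attp2 against attp40. The cause was not tested.

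Whether replicate numbers pair the libraries is not settled. Same-number correlations of deviations ran from −0.274 to 0.213, and in no comparison did every library correlate best with its own number. For LamB RNAi against attp40, 4 of the 6 libraries with a partner did so, with same-number correlations of 0.0841 to 0.213. The count was also 4 of 6 for age and for w1118 against attp40. It was 2 of 8 for LamC RNAi and 1 of 6 for attp2 against w1118 and against attp40. With the replicate block 6 regions were called for LamB RNAi and 9 for attp2 against attp40. Calls at CG12896 held with the block (limma adjusted p of 0.00689 for attp2 and 0.00658 for w1118, each against attp40) and without any 1 library (0.00238 to 0.0412). Depth is unknown, so a score of 0 means no peak among those ranked, not closed chromatin.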
